A study of Mus musculus with 3 samples.

Results

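Interferon-stimulated genes are switched on when interferons, the secreted proteins that cells use to signal viral infection and immune activation, bind their receptors at the cell surface. The receptors activate JAK kinases, which phosphorylate STAT factors. Type I interferons act mainly through a complex that holds Stat2 and Irf9 and binds the interferon-stimulated response element, whereas interferon gamma acts through STAT dimers that bind gamma-activated sites. Their products sense foreign nucleic acids, block viral replication and raise antigen presentation, and muscle fibres as well as the leukocytes and vessel cells between them can respond.

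A list of 37 such genes was followed in the tibialis anterior muscle of mice, with the immunity-related and guanylate-binding GTPases and the genes of the major histocompatibility complex left out. Members were found by the gene symbol that the platform annotation gives to a row. A value was obtained for 36 of them, out of 25206 genes on the array, and Ifi44 was not analysed here. All 3 groups were male CD2F1 mice (strain label CD2), 10 weeks old when AAV9 vector at 1e+11 vector genomes was injected into the muscle. Subcutaneous inoculation of both flanks followed 2 weeks later, and muscles were taken 26 days after it. The Sham group received AAV9-scrambled-shRNA and PBS without tumour cells. The C26 scrambled-shRNA group received AAV9-scrambled-shRNA and 500000 colon 26 adenocarcinoma cells per flank, a mouse tumour line that causes cachexia. The C26 FoxP1-shRNA group received AAV9-FoxP1-shRNA, directed against the transcription factor FoxP1, and the same tumour cells. The short hairpin was driven by the U6 promoter, which is active in any transduced cell. The scrambled vector also carried GFP and the FoxP1 vector mCherry, so that marker and hairpin cannot be told apart. Each group was 1 Mouse Gene 2.0 ST array of RNA pooled from 3 mice, so no difference could be tested against the spread between mice, and every value below is a single measurement. Values are log2 after Robust Multiarray Average (RMA), which sets all arrays on 1 scale, and a difference of 1 on that scale is 2-fold. A gene is called 2-fold lower where its linear value was at or below 0.5 times that of the other array, and 2-fold higher where it was at or above 2 times.

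The arrays had median log2 values between 3.99 and 4.06, with the highest values between 12.25 and 12.45. Foxp1 itself read 6.41 (log2) in Sham, 7.31 in the C26 scrambled-shRNA array and 6.52 in the C26 FoxP1-shRNA array, so that it was lower with its hairpin than in the other C26 array and close to Sham. The tissue label was borne out by 10 muscle fibre markers, whose values in Sham lay between 11.11 and 12.39. In C26 scrambled-shRNA 1092 genes were 2-fold lower and 843 were 2-fold higher. With the arrays centred on 8 measured reference genes these counts were 801 and 1286. The 3 comparisons share arrays in pairs, so their values are given side by side and no likeness between them is drawn.

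The response element is shown first because it is the sequence through which most of these genes are known to be switched on. RefSeq windows (GRCm38.p6) from 250 bases before to 50 bases after the start were found for 25 of the 36 genes, and were searched on both strands for its core GAAANNGAAA. A match stood in 10 of 25 genes, namely Stat2, Ifih1, Ddx58, Ifit1, Bst2, Isg15, Rsad2, Ifit3, Oas1a and Oas3. It stood in 31.25% of the 32 windows of these genes and in 3.44% of the 32851 windows of all genes. The gamma-activated site TTCNNNGAA, which reads the same on both strands, stood in 8 of the 32 windows (8 of 25 genes) and in 8.30% of all windows. The 6 genes with the largest C26 difference among those holding the response element are printed with it in capitals, and Irf1 with a gamma-activated site in capitals. Each reads 5′ to 3′ along the strand of the gene. In Isg15 and Bst2 the capitals run through several matches that overlap each other, and in Bst2 a gamma-activated site overlaps the first of them.
Stat2: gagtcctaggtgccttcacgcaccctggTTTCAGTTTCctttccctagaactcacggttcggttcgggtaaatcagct
Ifih1: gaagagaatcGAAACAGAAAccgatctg
Ddx58: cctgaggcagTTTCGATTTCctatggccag
Ifit1: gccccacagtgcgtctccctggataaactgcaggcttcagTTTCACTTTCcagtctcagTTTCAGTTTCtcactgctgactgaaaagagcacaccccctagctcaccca
Bst2: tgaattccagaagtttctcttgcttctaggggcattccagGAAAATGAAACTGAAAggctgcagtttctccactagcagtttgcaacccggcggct
Isg15: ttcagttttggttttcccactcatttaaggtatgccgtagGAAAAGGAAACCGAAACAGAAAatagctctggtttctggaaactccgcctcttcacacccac
Irf1: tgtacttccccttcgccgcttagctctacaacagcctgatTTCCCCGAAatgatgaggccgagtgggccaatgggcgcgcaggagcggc

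The stretch of Stat2 lies at chr10:128270248-128270325 on the plus strand and its match begins 222 bases before the start of transcription. That of Ifit1 is chr19:34640745-34640853, also plus, with 2 matches of which the first begins 104 bases before the start. Bst2 is shown over chr8:71537547-71537642 on the minus strand, where 2 matches begin 130 bases before the start and share 4 bases. Isg15, at chr4:156200835-156200936 on the minus strand, holds 3 overlapping matches that begin 78 bases before the start. In both sensors the match falls after the start of transcription, at base 33 for Ifih1 (chr2:62646206-62646233, minus) and at base 3 for Ddx58 (chr4:40239804-40239833, minus). The Irf1 stretch is chr11:53769884-53769972 on the plus strand, with its gamma-activated site 90 bases before the start. A match is a run of letters, and none was measured here as a bound site.

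In C26 scrambled-shRNA muscle the list as a whole was lower than in Sham muscle. Of the 36 measured genes, 22 were 2-fold lower and none was 2-fold higher, where 4.33% and 3.34% of all genes were. The median log2 difference of the list was -1.25, against 0.03 over all genes. Of the 36, 33 were below Sham to any extent, and of all 25206 genes 11600 were. The largest difference was that of Parp14, 4.69-fold lower, and the largest in the other direction was 0.24 on the log2 scale for Oasl1. The split by role was uneven, with 7 of 7 transcription factors and coactivators, 3 of 4 sensors, 4 of 5 genes of the ISG15 and ADP-ribose group and 4 of 5 of the remaining genes 2-fold lower, but 4 of 15 antiviral effectors.

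**Figure D1:**
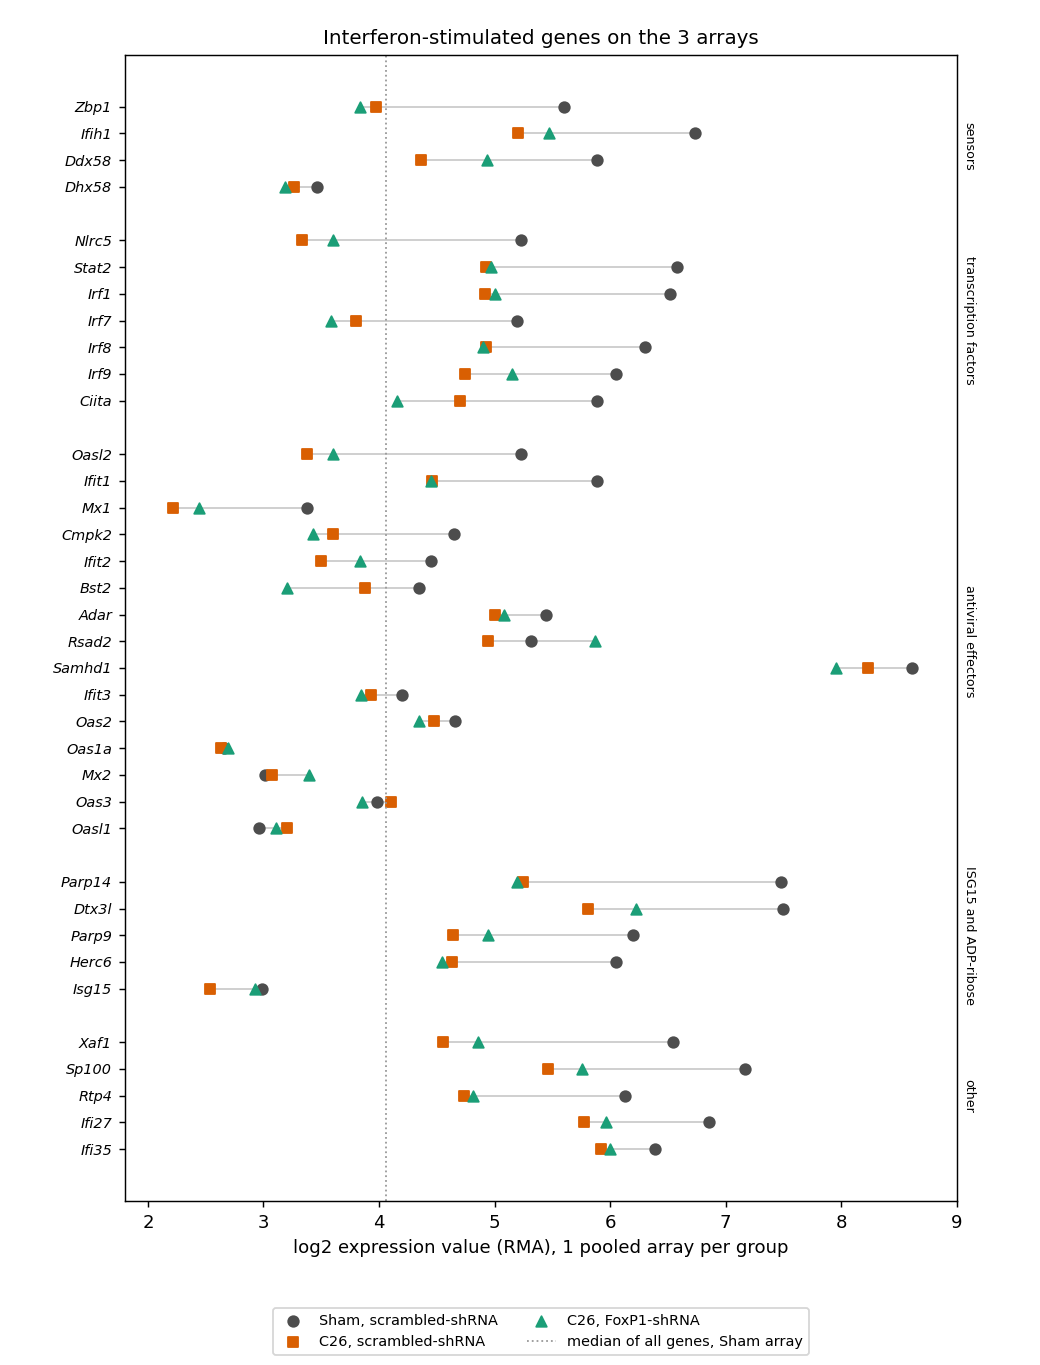
Log2 RMA value (horizontal axis) of the 36 measured interferon-stimulated genes, grouped by role, on the Sham (circle), C26 scrambled-shRNA (square) and C26 FoxP1-shRNA (triangle) arrays, with 1 pooled array per group and no error bars. For most genes the circle stands to the right of both C26 symbols, which lie close together, and the dotted line marks the Sham array's median of 4.06.

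The transcription factors that carry the interferon signal to the genome were lower in C26 muscle without exception, with a median difference of -1.40. Stat2, which with Irf9 forms the DNA-binding complex of the type I response, read 6.58 (log2) in Sham, 4.93 in the C26 scrambled-shRNA array and 4.97 in the C26 FoxP1-shRNA array. The C26 scrambled-shRNA value was 3.14-fold below Sham, and the C26 arrays nearly coincided. Its partner Irf9 had values of 6.05, 4.74 and 5.15 in the same order, 2.48-fold lower in C26 scrambled-shRNA, with the FoxP1-shRNA array in between. Irf1, an early target of interferon gamma with the gamma-activated site printed above, stood at 6.52 in Sham and at 4.92 and 5.00 in the C26 arrays, a 3.03-fold lower value with scrambled-shRNA. Irf7, which amplifies the production of type I interferons, had 5.20 in Sham, 3.80 in the C26 scrambled-shRNA array and 3.58 in the C26 FoxP1-shRNA array and was 2.64-fold lower in the former. Sham was thus the highest array for each of these 4 genes.

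Irf8, a factor of myeloid cells and B cells that also responds to interferon gamma, read 6.30 (log2) in Sham, 4.92 in the C26 scrambled-shRNA array and 4.90 in the C26 FoxP1-shRNA array. It was 2.60-fold lower in C26 scrambled-shRNA, and the C26 arrays nearly coincided. The coactivators of antigen presentation were lower as well. Nlrc5, the coactivator of class I genes, had 5.22, 3.33 and 3.60 in the same order and was 3.71-fold lower, the largest difference among these 7 genes. For Ciita, the coactivator of class II genes, the values were 5.88, 4.70 and 4.16, which is 2.27-fold lower with scrambled-shRNA. Ciita was the gene of this role that lay furthest below the other C26 array with FoxP1-shRNA, by a log2 difference of -0.54.

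Among the sensors of foreign nucleic acid, 3 were lower by a similar amount in C26 scrambled-shRNA and 1 was close to Sham. With FoxP1-shRNA these 3 were spread more widely, from 1.93-fold below Sham for Ddx58 to 3.40-fold for Zbp1. Ifih1, which encodes the long double-stranded RNA sensor MDA5, read 6.74 (log2) in Sham, 5.21 in the C26 scrambled-shRNA array and 5.47 in the C26 FoxP1-shRNA array, a 2.89-fold lower value in C26 scrambled-shRNA. Ddx58, which encodes RIG-I, the sensor of RNA with a 5′ triphosphate, had 5.89, 4.36 and 4.93 and was 2.87-fold lower. Zbp1, a sensor of left-handed nucleic acid that can start necroptosis, had 5.60, 3.97 and 3.83 and was 3.09-fold lower. With FoxP1-shRNA Ddx58 was 0.57 above the other C26 array on the log2 scale, and Zbp1 was not above it. Dhx58, the third member of the RIG-I family and a regulator of the other two, had 3.47, 3.26 and 3.19, all below the Sham array's median.

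The antiviral effectors divided into a smaller set that was 2-fold lower in C26 muscle and a larger set that was not. Oasl2, a 2-5A synthetase-like protein, read 5.23 (log2) in Sham, 3.37 in the C26 scrambled-shRNA array and 3.60 in the C26 FoxP1-shRNA array, a 3.62-fold lower value with scrambled-shRNA. Ifit1, which binds viral RNA that lacks a host cap and holds 2 matches in its printed promoter, had 5.89, 4.46 and 4.45 and was 2.69-fold lower. Cmpk2, a nucleotide kinase of mitochondria, had 4.65, 3.60 and 3.43 and was 2.07-fold lower. Each of these 3 was highest in Sham. Mx1, a dynamin-like GTPase that is defective in many laboratory strains, had 3.38, 2.22 and 2.44 and was 2.23-fold lower, from a dim value in Sham.

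Of the 11 other effectors, 8 were below Sham and 3 above it. Ifit2, a relative of Ifit1, stood just outside the 2-fold size with a log2 difference of -0.96, while Cmpk2 with -1.05 and Ifi27 with -1.08 stood just inside. Bst2, which encodes tetherin, a protein that holds budding viruses on the cell, had 4.34 in Sham and 3.88 in C26 scrambled-shRNA, and was lower again, at 3.20, in C26 FoxP1-shRNA. The last of these was 2.21-fold below Sham. Adar, the RNA-editing enzyme (difference -0.45), Samhd1, which breaks down nucleotides (-0.38), Rsad2, which encodes viperin (-0.38), Ifit3 (-0.27) and Oas2 (-0.19) were below Sham by less than 2-fold. Samhd1 was a bright gene on every array, at 8.61, 8.23 and 7.95. The remaining genes Mx2, Oas3 and Oasl1 were above Sham by 0.07, 0.13 and 0.24 on the log2 scale, and Oas1a was at -0.03, a difference that changed sign with the scaling of the arrays. Oas1a and Ifit3 belong to families with near-identical copies in the mouse genome, so their probes may be shared and the values are uncertain.

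Isg15, a ubiquitin-like protein that is attached to other proteins during the response, was dim, at 2.99 (log2) in Sham, 2.54 in the C26 scrambled-shRNA array and 2.93 in the C26 FoxP1-shRNA array. Its difference of -0.45 in C26 scrambled-shRNA did not reach 2-fold. The ligase Herc6, which attaches the Isg15 protein to others in the mouse, had 6.05, 4.63 and 4.54 and was 2.68-fold lower in C26 scrambled-shRNA. Parp14, an enzyme that adds single ADP-ribose units, had 7.48 in Sham, 5.25 in the C26 scrambled-shRNA array and 5.20 in the C26 FoxP1-shRNA array. It was 4.69-fold lower with scrambled-shRNA, which placed it at rank 174 from the lowest among 25206 genes. Dtx3l and Parp9 encode partners in a ligase complex that acts on chromatin and on viral proteins. Dtx3l had values of 7.50, 5.81 and 6.23 and was 3.22-fold lower in C26 scrambled-shRNA. Parp9 had 6.20, 4.64 and 4.94 and was 2.94-fold lower. All 4 enzymes were highest in Sham, while Isg15 in C26 FoxP1-shRNA was within 0.06 of Sham on the log2 scale.

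The remaining genes were mostly of the same size of difference. Xaf1, which encodes a partner of an inhibitor of apoptosis, read 6.55 (log2) in Sham, 4.55 in the C26 scrambled-shRNA array and 4.86 in the C26 FoxP1-shRNA array and was 3.99-fold lower with scrambled-shRNA, at rank 228 from the lowest. Sp100, a constituent of nuclear bodies that restrict viral genomes, had 7.17, 5.46 and 5.75 and was 3.27-fold lower. Rtp4, a receptor transporter, had 6.13, 4.73 and 4.81 and was 2.64-fold lower. The size of these 3 differences was well above that of Ifi35, a leucine-zipper protein, which read 6.39 in Sham and 5.92 in C26 scrambled-shRNA, a difference of -0.47, and was 0.08 above the latter with FoxP1-shRNA. Ifi27, a small membrane protein, had 6.85, 5.78 and 5.97 and was 2.11-fold lower.

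**Figure D2:**
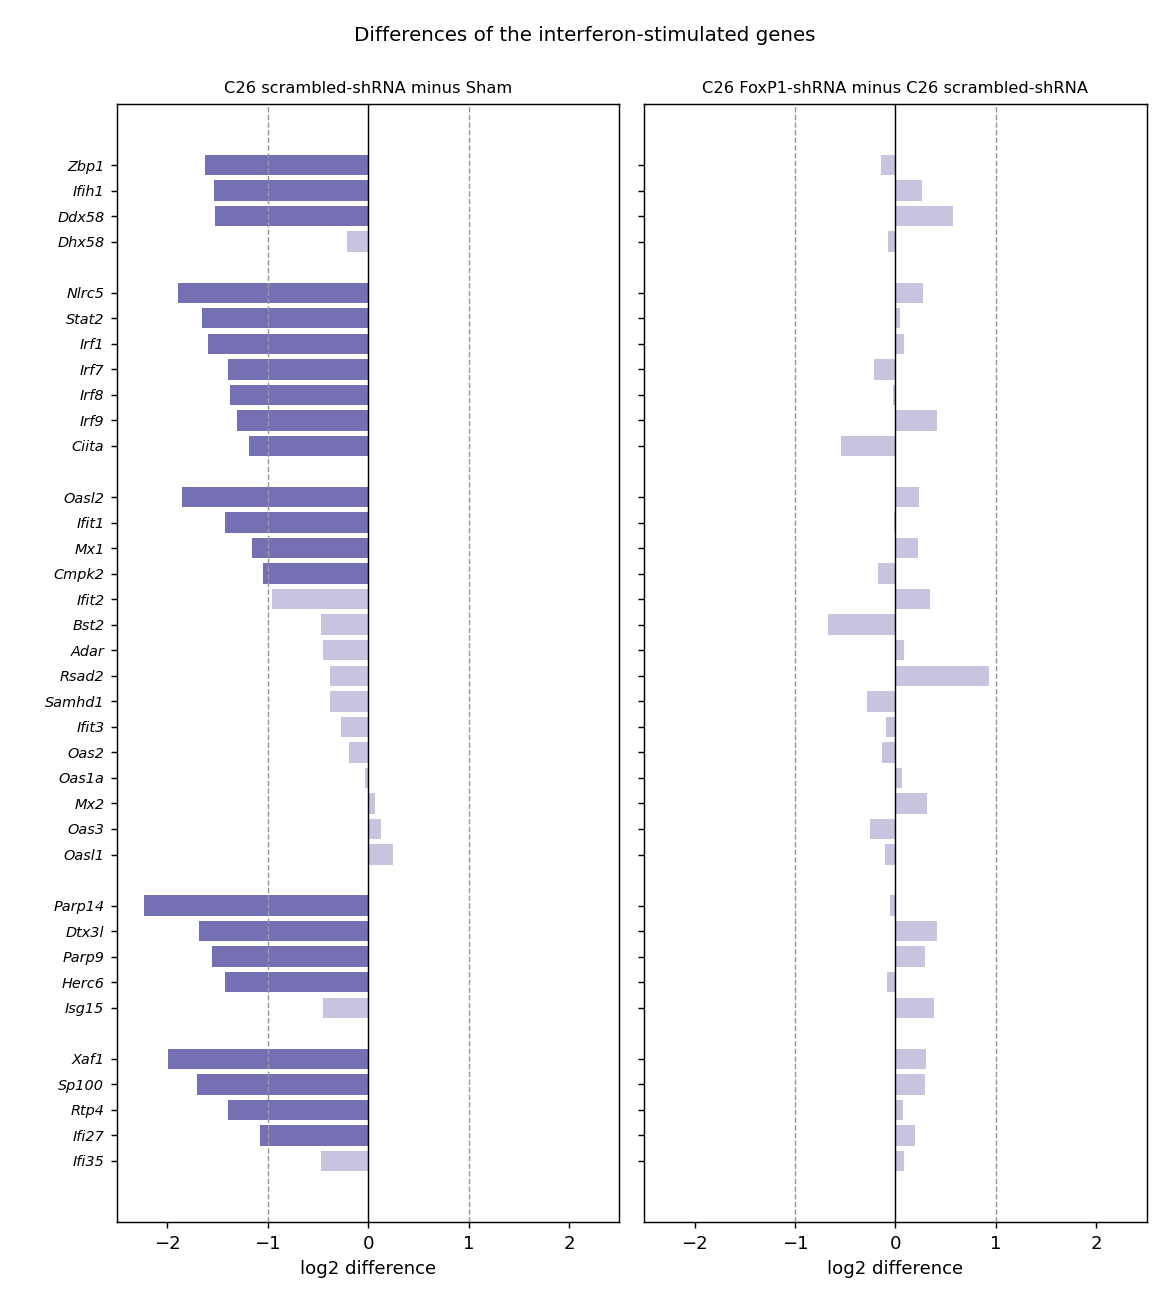
Log2 difference (horizontal axes) of each measured interferon-stimulated gene, C26 scrambled-shRNA minus Sham on the left and C26 FoxP1-shRNA minus C26 scrambled-shRNA on the right, with dashed lines at 2-fold and dark bars for genes at or beyond it. On the left 22 bars reach past -1 and none past 1, and on the right no bar reaches either line.

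The members also differed in brightness, taken here as the mean log2 value over the 3 arrays, which itself holds the values being compared. Of the 36 genes, 25 were above the median of this mean over all genes, 4.04, and 20 of these were 2-fold lower in C26 scrambled-shRNA, where 7.14% of all genes above it were. Nlrc5 (4.05) and Oasl2 (4.07) were just above the line. Of the 11 genes not above it (Dhx58, Ifit2, Ifit3, Mx1, Mx2, Oas1a, Oas3, Oasl1, Cmpk2, Bst2 and Isg15) 2 were 2-fold lower, Mx1 and Cmpk2. Over all genes of any brightness 4.33% were. The share among all genes not above the line was not counted, so these 2 have no background of like brightness. Near the lower end of the array a value has little room to be lower, and the part of this in the smaller differences was not tested. The 5 brighter genes without a 2-fold difference were Oas2, Rsad2, Samhd1, Adar and Ifi35, and all 5 were below Sham, by -0.19 to -0.47 on the log2 scale.

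**Figure D3:**
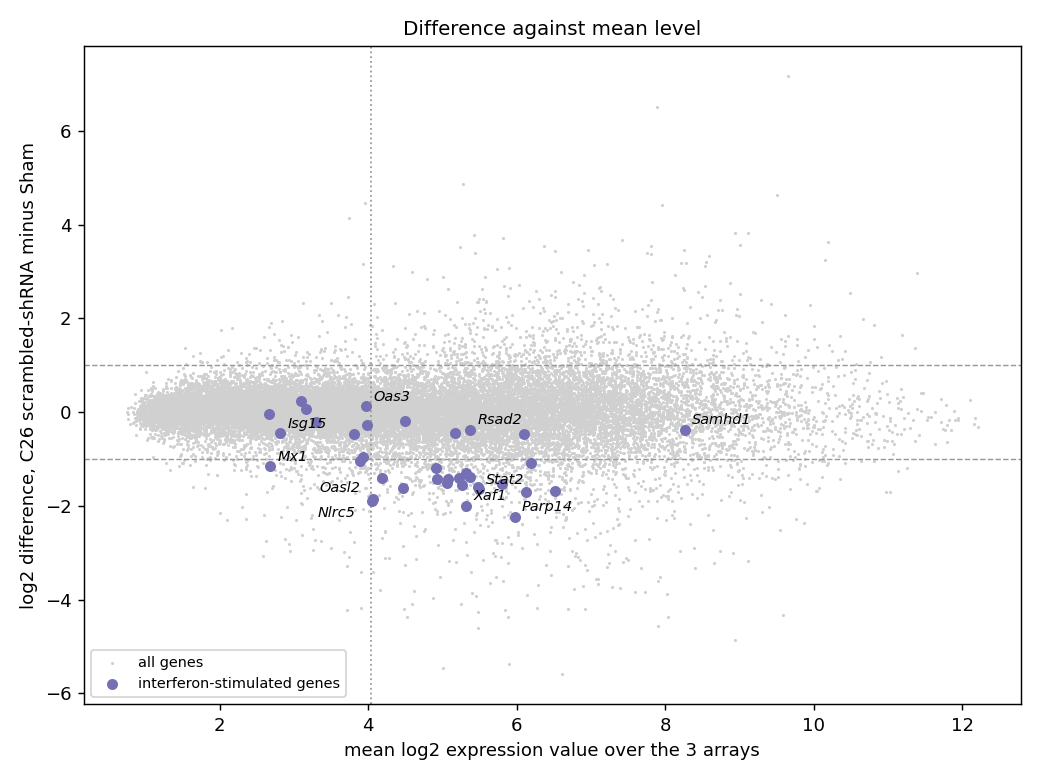
Log2 difference, C26 scrambled-shRNA minus Sham (vertical axis), against the mean log2 RMA value over the 3 arrays (horizontal axis) for all 25206 genes in grey and the 36 measured interferon-stimulated genes in purple, 1 pooled array per group, with dashed lines at 2-fold. The purple points to the right of the dotted line, the median of that mean over all genes (4.04), are all below 0, with Parp14 the lowest at -2.23.

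The response element was not more frequent among the genes with the larger differences. Among genes with a window, it was found in 4 of 14 that were 2-fold lower in C26 scrambled-shRNA, and in 6 of 11 that were not. The 4 were Stat2, Ifih1, Ddx58 and Ifit1, all above the brightness line of 4.04. Of the 6, Rsad2 was above it, and Isg15, Bst2, Ifit3, Oas1a and Oas3 were not. Match and brightness therefore cannot be told apart in these counts. The gamma-activated site was found in 2 of 14 (Irf1 and Irf8) and in 6 of 11. Isg15, with 3 overlapping matches, and Bst2, with 2, had differences of -0.45 and -0.47, whereas Stat2, with 1 match further from its start, had -1.65. Absence of the letters from a window of this length says nothing of a factor acting elsewhere.

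Several members are neighbours in the genome with no other protein-coding gene between them in the RefSeq annotation (GRCm38.p6), and neighbours did not always have like differences. Parp14, Dtx3l and Parp9 follow each other on chromosome 16 and were lower in C26 scrambled-shRNA by 4.69-fold, 3.22-fold and 2.94-fold. By contrast, Oasl2 and Oasl1 adjoin on chromosome 5 with log2 differences of -1.86 and 0.24. Cmpk2 and Rsad2 adjoin on chromosome 12 and had -1.05 and -0.38, and Ifit2 and Ifit3 on chromosome 19 had -0.96 and -0.27. Oas2 and Oas3, both on chromosome 5, had -0.19 and 0.13.

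With FoxP1-shRNA the interferon-stimulated genes, like most genes, were near their values in the other C26 array. None of the 36 was 2-fold lower than with scrambled-shRNA and none 2-fold higher, where 1.06% and 1.44% of all genes were, so that the count was at the background share. The median log2 difference of the list was 0.08, within a range of -0.67 to 0.93, and that of all genes was -0.03. On the log2 scale 32 of 36 (88.9%) lay within 0.5 of C26 scrambled-shRNA, against 85.2% of all genes, and 21 (58.3%) lay above it, against 44.8% of all genes. The exceptions were Rsad2 and Ddx58 on the higher side, with 0.93 and 0.57, and Bst2 and Ciita on the lower side, with -0.67 and -0.54. Rsad2, which encodes an enzyme that makes a chain-ending nucleotide, had 5.32 in Sham, 4.94 in the C26 scrambled-shRNA array and 5.87 in the C26 FoxP1-shRNA array, the one of the 25 brighter members that was highest with FoxP1-shRNA. Its neighbour Cmpk2 was not higher with FoxP1-shRNA, with a log2 difference of -0.17. The sign of the FoxP1-shRNA difference changed with the scaling of the arrays for Dhx58, Irf8, Ifit1 and Parp14, all near 0.

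Set against Sham, C26 FoxP1-shRNA muscle had 19 of 36 members 2-fold lower and none 2-fold higher, against 2.17% and 1.61% of all genes. The median log2 difference was -1.18, and over all genes it was -0.00. Among the 25 brighter members 17 were 2-fold lower, where 2.94% of all genes above the same line were. Of the 22 members that were 2-fold below Sham with scrambled-shRNA, 18 were so with FoxP1-shRNA too, a share not counted over all genes. The 4 that were not, Ddx58, Irf9, Mx1 and Ifi27, had log2 differences of -0.95, -0.90, -0.93 and -0.89 from Sham, close to the 2-fold size. Bst2 was the gene that reached 2-fold against Sham with FoxP1-shRNA alone, and with the arrays centred on reference genes it did not. Parp14 was again the lowest, 4.87-fold below Sham. Both counts use the same Sham array, so neither is a repeat of the other.

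The ligands of the pathway showed no difference of 2-fold. Of 19 type I and III interferon genes 15 had a value, and none was at or beyond 2-fold in C26 scrambled-shRNA against Sham, with a median log2 difference of 0.19. Ifnb1 read 2.24 (log2) in Sham, 1.81 in the C26 scrambled-shRNA array and 2.48 in the C26 FoxP1-shRNA array, near the floor of the arrays. The Ifna genes are near-identical copies and their values are uncertain. Ifng, which encodes interferon gamma, had 3.48, 3.39 and 3.52, below the median of each array. Values this low leave less room for a lower one to be measured, though Mx1 was 2-fold lower from 3.38 in Sham.

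Of 6 interferon receptor genes 1 was 2-fold lower in C26 scrambled-shRNA. Ifngr2, the signalling chain of the interferon gamma receptor, read 8.68 (log2) in Sham, 7.39 in the C26 scrambled-shRNA array and 8.34 in the C26 FoxP1-shRNA array, so that the FoxP1-shRNA array stood nearer to Sham. Il10rb, a chain of the type III receptor, was at -0.99. The other chains Ifnar1, Ifnar2, Ifngr1 and Ifnlr1 were at -0.19, -0.50, -0.15 and 0.01. Of the 4 JAK and STAT genes measured beside the members, Jak2, which serves the gamma receptor, had 8.65, 7.57 and 8.24, and Stat3, which carries the signal of interleukin 6 type cytokines, had 8.56, 9.94 and 9.79. Jak2 was thus lower than Sham in C26 scrambled-shRNA, at -1.07, and Stat3 higher, at 1.38, whereas Jak1 and Tyk2 were at -0.12 and -0.17.

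Among 9 genes listed as feedback inhibitors of interferon signalling 2 were 2-fold lower in C26 scrambled-shRNA and 1 was 2-fold higher. Usp18, which removes Isg15 from proteins and blocks the type I receptor, was at -1.31, and the phosphatase Ptpn6 at -1.22. Socs3, an inhibitor induced through Stat3, read 4.73 (log2) in Sham, 6.84 in the C26 scrambled-shRNA array and 7.35 in the C26 FoxP1-shRNA array, the highest array being that with FoxP1-shRNA. Isg20, counted in this list though an exonuclease of RNA rather than an inhibitor of signalling, had 5.84, 6.18 and 7.37. Isg20 was 1.19 higher with FoxP1-shRNA than with scrambled-shRNA. Of 13 measured genes of nucleic acid sensing upstream of interferon 2 were 2-fold lower, Tlr3 with -1.17 and Irf5 with -1.10, and the median over the 13 was 0.08. Mavs, the adaptor of Ifih1 and Ddx58, was at 0.40 and the kinase Tbk1 at 0.55, both above Sham where these sensors were below it.

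A further 40 interferon-stimulated genes outside the 36 were mostly on the same side. This list, like the members, was chosen with earlier results of these data known. In C26 scrambled-shRNA 16 were 2-fold lower and 2 were 2-fold higher, where 4.33% and 3.34% of all genes were. The median log2 difference of the 40 was -0.76. The largest were Cxcl9, a T cell attractant induced by interferon gamma (-4.19), Gm4951 (-2.77), Ifi203 (-2.73) and Ms4a4c (-2.71). Daxx and Ifitm2 were the 2 higher genes, with 1.42 and 1.10. With FoxP1-shRNA against scrambled-shRNA 1 of the 40 was 2-fold lower (Daxx, -1.01) and 1 was 2-fold higher (Ube2l6, the conjugating enzyme of Isg15, 1.09). Of all genes 1.06% and 1.44% were. The GTPases and the antigen presentation genes, whose lists were written after their values were seen, had larger medians than the 36 genes, at -3.23 with 12 of 12 and at -1.46 with 9 of 10 genes 2-fold lower. Tap1 (-2.07) was counted both among the 40 and among the antigen presentation genes, so these lists are not fully separate.

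**Figure D4:**
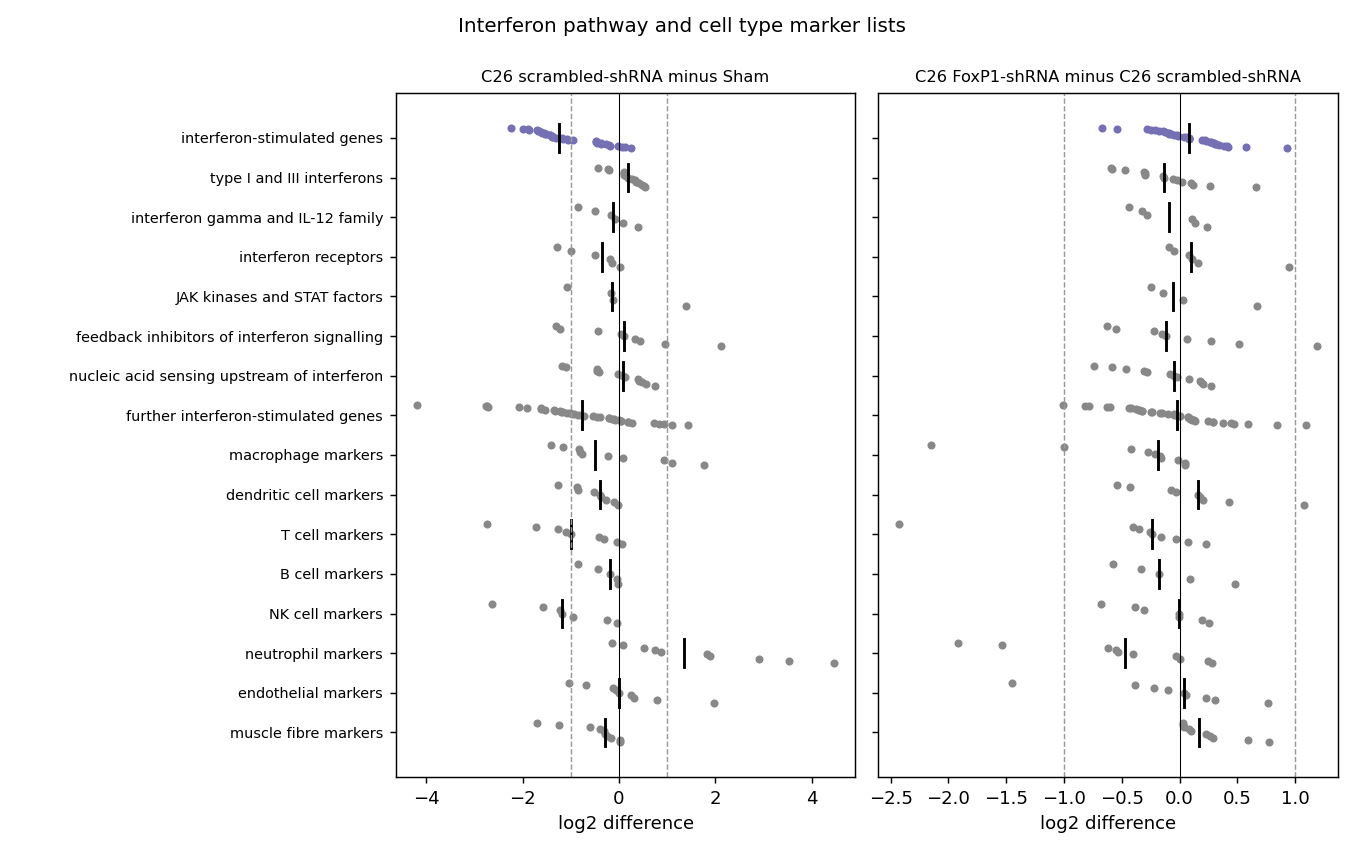
Log2 difference of each measured gene (points) and the median of its list (vertical bar) for the 36 interferon-stimulated genes in purple and, in grey, other genes of the interferon pathway and cell type markers, with C26 scrambled-shRNA minus Sham on the left and C26 FoxP1-shRNA minus C26 scrambled-shRNA on the right, and dashed lines at 2-fold. The lists of GTPases and antigen presentation genes are not drawn, though Tap1 is drawn among the further interferon-stimulated genes. Among the lists drawn on the left, the medians of the 36 interferon-stimulated genes (-1.25) and of the NK cell markers (-1.18) lie furthest below 0 and that of the neutrophil markers (1.34) furthest above.

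Markers of leukocytes, some of which express interferon-stimulated genes strongly, also differed between the arrays. Of 9 measured T cell markers 5 were 2-fold lower in C26 scrambled-shRNA (mean log2 difference -0.94, with Cd3g at -2.73 and Cd4 at -1.73) and none was 2-fold higher. Their summed level on the linear scale was 244 in Sham, 139 in the C26 scrambled-shRNA array and 88.0 in the C26 FoxP1-shRNA array. Cd3e accounted for most of the step between the C26 arrays, at 6.09, 5.68 and 3.26 on the log2 scale, and without it the sums were 176, 87.4 and 78.5. Of 7 NK cell markers 4 were 2-fold lower (median -1.18, such as Nkg7 with -2.63 and Ncr1 with -1.58), with summed levels of 164, 54.8 and 49.7. Nkg7 was the brightest of the 7 in Sham, at 6.51 (log2) where their median was 3.59. It therefore weighs most in the Sham sum, and sums without it were not taken. Both sums were thus highest in Sham, though single markers such as Cd6 (3.99, 4.06 and 3.80) were not. T cells and NK cells are the main sources of interferon gamma, but Ifng itself differed by only -0.09 (log2) in C26 scrambled-shRNA. A link of these markers to the interferon-stimulated genes was not tested.

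The myeloid and other markers did not follow 1 direction. Of 10 macrophage markers 2 were 2-fold lower (Adgre1, -1.41, and C1qc, -1.16) and 2 were 2-fold higher (Cd68, 1.77, and Cd163, 1.09), with summed levels of 811, 954 and 565. Cd68 alone set the order of these sums, which were 697, 567 and 477 without it. Of 9 dendritic cell markers 1 was 2-fold lower, with sums of 148, 101 and 112. Of 5 measured B cell markers none was 2-fold lower, with sums of 54.6, 45.1 and 41.8. All 9 dendritic cell and all 5 B cell markers were below Sham to any extent in C26 scrambled-shRNA. For macrophage and neutrophil markers this held for 6 of 10 and 1 of 10. For neutrophils 5 of 10 markers were 2-fold higher, such as Retnlg with 4.47 and S100a8 with 3.53, and the sums were 101, 399 and 287. Endothelial markers had 1 of 9 that was 2-fold lower and 1 that was 2-fold higher, with sums of 1692, 1687 and 1648, and 2 of 10 muscle fibre markers, Pvalb and Mylpf, were 2-fold lower. No marker was at 0, since RMA values have no true zero. In bulk muscle fewer cells of a type and less RNA per cell cannot be told apart, and the part of leukocyte content in the differences of the interferon-stimulated genes was not tested. Without 6 members that leukocytes express at rest (Irf1, Irf8, Ciita, Nlrc5, Samhd1 and Sp100) the median of the list in C26 scrambled-shRNA against Sham was -1.12. Leukocytes can express the members that were kept as well, so this median does not measure the part of leukocyte content.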

How the data were processed

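Total RNA of the tibialis anterior, pooled from 3 mice per group, was measured on 1 Mouse Gene 2.0 ST array per group. The authors deposited log2 values that the submitters' processing notes credit to RMA (Robust Multiarray Average), affy version 1.36.1 and R version 2.15.1, with a Brainarray Entrez gene mapping (the paper's methods), so background, scale and probe summary were set before deposit. The genome build is not given in the sources used here. Of 25206 genes, 23185 had 1 symbol in the platform annotation, 0 several and 2021 none. These last are unnamed here. Differences, folds, medians and counts at 2-fold were computed with Python 3.11.15, numpy 2.4.6 and pandas 2.3.3, without a filter on dim genes, and checked on simulated data. No test was possible with 1 array per group, and precision is limited by the number of arrays. Cyclic loess scaling, 1 of 4 other scalings, used limma 3.58.1 under R 4.3.3. The members and lists were chosen with earlier results of these data known. Every measured member is named, with up to 4 genes of each other list by size of difference in each comparison, plus ligands and receptors. Cd6, Ifitm2, the other JAK and adaptor genes, the Irf1 stretch and the GTPase and antigen presentation lists were chosen after their values were seen. Promoter windows came from RefSeq.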

Additional observations from a re-analysis of the deposited data

How the results depend on the processing

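Of 71 values recomputed under another scaling, filter, size or summary, 60 stayed close and 11 moved. Close means medians within 0.1 on the log2 scale and counts within 1.5 times. No median changed sign, and for counts a change of direction was not defined. Many of the close values were counts of 0 that stayed 0. For C26 scrambled-shRNA against Sham, the median of -1.25 was -1.08 with the arrays centred on 8 reference genes, which shifts the median of all genes by 0.17, -1.40 without dim genes, -1.12 without 6 members that leukocytes express at rest and -1.04 as a mean. The 22 genes at or below 0.5 times were 19 with reference genes (without Mx1, Ifi27 and Cmpk2), 22 with the other scalings and 9 at 3-fold. For C26 FoxP1-shRNA against Sham, the median of -1.18 was -1.01 with reference genes, -0.94 without the 6 members and -0.96 as a mean, and the 19 lower genes were 8 at 3-fold. With FoxP1-shRNA against scrambled-shRNA, 1 gene was lower (Bst2) and 1 higher (Rsad2) at 1.5-fold. The cause of these shifts was not tested. Shares of all genes at 1.5-fold and 3-fold were not counted, so the member counts at those sizes have no background beside them. No paired analysis was possible because each group was 1 pooled array. Depth has no direct measure on arrays, and folds of genes below the array median are the least certain. The restriction to brighter members was added after seeing the data.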
